A study of Mus musculus with 3 samples.

Results

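The 3 wells described here held mouse embryonic fibroblasts (MEF) treated with an inhibitor of the kinases MEK1 and MEK2, and were taken by compound name from 270 wells in the barcode lists of a screen of kinase inhibitors. The compounds were GDC_0623, Ro_5126766 and Trametinib (its DMSO solvate, named Trametinib_.DMSO_solvate. in the table), in 1 well each, all on plate 1. GDC_0623 and Trametinib are MEK inhibitors, and Ro_5126766 inhibits both RAF and MEK. They were set against 87 other wells of that plate, which held other compounds of the same library. All wells held wild-type embryonic fibroblasts kept for 4 days in a medium named CFAE+8, whose components are not given in the labels, and plate 1 is 1 deposited sample with no replicate plate. The labels give no dose and no well of plate 1 is known to hold vehicle alone, so each value is relative to cells given other kinase inhibitors. The 5 wells named bC8FAE, on plate 3, are used only as levels from another plate.

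RNA was measured by DRUG-seq2, in which each well is lysed and reverse transcribed with its own barcode and the wells of a plate are pooled into 1 library. The total count was 331844 for GDC_0623, 45416 for Ro_5126766 and 249434 for Trametinib, against 91041 to 591025, with a median of 319587, in the other 87 wells. The Ro_5126766 well was therefore the shallowest of the 90 wells used, and 1 count there is worth about 22.02 CPM. Levels below are CPM, the usual scaling of a count by the well's total, and fold changes are log2 differences from edgeR's quasi-likelihood test with a Benjamini-Hochberg adjusted p over 6450 genes, called under 0.05. Since each compound had 1 well, the test assumes that this well varies as the other wells of the plate do, and its p-values measure only the spread between these wells. Every comparison with the other wells uses the same 87 wells.

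MEK1 and MEK2 stand between the RAF kinases and the ERK kinases, and phosphorylate the ERK kinases when growth factor receptors signal. Active ERK induces immediate early genes, the ETS factors of the Etv4 and Etv5 type, cyclin D1, and inhibitors of its own pathway such as the Spred, Sprouty and Dusp families. The RNA of these genes is widely used as a readout of ERK activity. In fibroblasts, mitogen signalling through ERK drives entry into the cell cycle, while contractile genes and matrix genes mark other fibroblast states.

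Genes downstream of ERK were lower in the MEK inhibitor wells, most of all with Trametinib. A list of 36 ERK feedback and target genes summed to 1766 CPM in the GDC_0623 well, 1806 CPM in the Ro_5126766 well and 1042 CPM in the Trametinib well, against 1789 to 5822 CPM, with a median of 3947 CPM, in the other 87 wells. The GDC_0623 and Trametinib wells lay below all 87, and the Ro_5126766 well lay below 86 of them. The counting interval (exact binomial, 95%) ran from 1626 to 1915 CPM for GDC_0623, from 1436 to 2241 CPM for Ro_5126766 and from 919.6 to 1177 CPM for Trametinib. These intervals cover counting error only. The lowest of the other wells, at 1789 CPM, held CCT196969, an inhibitor of RAF and SRC kinases that was singled out after its values were seen.

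Of the 36 genes, 22 passed the filter on low counts. With Trametinib, 13 of the 22 fell and 0 rose, with a median log2 fold change of -3.37 against -0.05 for all genes, where 15.1% of genes were called (8.6% higher and 6.48% lower), and DESeq2's Wald test called 9 lower and 1 higher. With GDC_0623, 9 of 22 fell and 2 rose, with a median of -2.36 against -0.05 for all genes, where 7.15% were called (5.16% higher and 1.98% lower). With Ro_5126766, edgeR called 0 of 22, where 0.295% of all genes were called (0.202% higher and 0.093% lower). At an unadjusted p under 0.05 it had 5 of 22, all lower, the Wald test called 1, and the median was -1.50 against -0.40 for all genes. Over the 3 compounds together (the mean of their 3 coefficients), 14 of 22 fell and 0 rose, with a median of -2.57 against -0.33 for all genes, where 10.9% of all genes were called (3.46% higher and 7.43% lower). Those calls were 223 higher and 479 lower, or 253 and 345 with DESeq2's size factors. The number of ERK genes that fell was 17 of 23 without the Ro_5126766 well, 10 without the GDC_0623 well and 5 without the Trametinib well. In those fits 23.8%, 4.04% and 2.27% of all genes were called. A MEK inhibitor well lay below every other well for 12 of the 22 genes with Trametinib, 6 with GDC_0623 and 5 with Ro_5126766, against 5.55%, 2.05% and 17.0% of all genes tested. The Ro_5126766 well, with its share of 17.0%, is also the shallowest, and the part of depth in that share was not tested.

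Spred1 and Spred2, inhibitors of the pathway that act between RAS and RAF, had 0 to 3 counts in the deeper wells. Spred1 had 3 counts (9.04 CPM) with GDC_0623, 4 counts (88.1 CPM) with Ro_5126766 and 0 counts with Trametinib, against 16.6 to 148 CPM, with a median of 72.0 CPM, in the other wells. At the floor of 3 counts in that well, Spred1 was at least 5.96-fold lower with Trametinib, and its ratio with GDC_0623 was 0.126 (95% exact Poisson interval 0.0260 to 0.368). Spred1 with Ro_5126766 lay inside the others' range. Spred2 had 2 counts with GDC_0623, 0 with Ro_5126766 and 1 with Trametinib, against 15.5 to 79.8 CPM, with a median of 44.2 CPM, elsewhere. It was the 1 gene of the list below every other well with all 3 compounds, as 0.388% of all genes tested were, though the 0 counts with Ro_5126766 allow up to 81.2 CPM, above the top of the others' range. Its ratio was 0.138 (0.0167 to 0.500) with GDC_0623 and 0.0920 (0.00233 to 0.513) with Trametinib, and both calls were lost in DESeq2's Wald test. Errfi1, which inhibits the EGF receptor, had 18.1 CPM, 0 CPM and 4.01 CPM with GDC_0623, Ro_5126766 and Trametinib, against a median of 56.8 CPM, and fell with Trametinib (ratio 0.0686, 0.00174 to 0.382; not called by the Wald test). Spred3, of the same family, had 27.1, 44.0 and 4.01 CPM, against 5.79 to 83.9 CPM, and fell with Trametinib (ratio 0.108, 0.00272 to 0.599). Dusp6, Spry1, Spry2 and Spry4, other inhibitors of the pathway, had 0 to 3 counts in each MEK inhibitor well and medians of 0 to 6.85 CPM in the other wells, too low to test.

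Transcription factors of the list were among the genes that fell. Etv4, an ETS factor, had 24.1 CPM with GDC_0623, 22.02 CPM with Ro_5126766 and 4.01 CPM with Trametinib, against 23.1 to 201 CPM, with a median of 132 CPM, in the other wells. The Trametinib well lay below that range and the GDC_0623 well just above its low end, while the Ro_5126766 value is 1 count, which allows 0.557 to 123 CPM. The log2 fold change of Etv4 was -2.47 with GDC_0623 (SE 0.58, adjusted p = 0.00203), and its ratio with Trametinib, from 1 count, was 0.0315 (7.99e-04 to 0.176). Etv5, its close relative, had 12.1 CPM with GDC_0623 and 4.01 CPM with Trametinib but 88.1 CPM, from 4 counts, with Ro_5126766, against 18.6 to 139.8 CPM and a median of 82.3 CPM. Etv5 was thus below all other wells with GDC_0623 and Trametinib and at their median with Ro_5126766, where 4 counts allow 24.0 to 225 CPM. Fosl1, an AP-1 subunit, had 15.1, 44.0 and 8.02 CPM with GDC_0623, Ro_5126766 and Trametinib, against a median of 111 CPM. It fell with GDC_0623 by 2.98 on the log2 scale (SE 0.79, adjusted p = 0.00714) and with Trametinib (ratio 0.0691, 0.00837 to 0.2498), although the other wells reached down to 0 CPM. Egr1, an immediate early factor, had 0 counts in all 3 wells, against 0 to 43.3 CPM elsewhere, and was called over the 3 compounds (adjusted p = 0.0368), a call lost with DESeq2's size factors, with the looser filter and without either deeper well.

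Ccnd1 and Hmga2 had the highest medians of the list in the other wells. Ccnd1, which encodes cyclin D1 and drives the passage from G1 into S phase, had 509 CPM with GDC_0623, 484 CPM with Ro_5126766 and 60.1 CPM with Trametinib, against 436 to 2093 CPM, with a median of 1342 CPM, in the other wells. The GDC_0623 and Ro_5126766 wells sat at the low end of that range and the Trametinib well far below it. Ccnd1 fell by 1.46 on the log2 scale with GDC_0623 (SE 0.40, adjusted p = 0.0108) and by 4.57 with Trametinib (SE 0.56, adjusted p = 1.92e-10). With Ro_5126766 the difference was -1.49 with a 95% interval from -2.45 to -0.54, which missed the threshold (adjusted p = 0.193). Hmga2, a chromatin protein of embryonic and proliferating cells, had 63.3, 132 and 12.03 CPM with GDC_0623, Ro_5126766 and Trametinib, against 77.1 to 1045 CPM and a median of 659 CPM. GDC_0623 and Trametinib were below every other well, and Ro_5126766 was inside the range but near its floor. The log2 fold change of Hmga2 was -3.40 with GDC_0623 (SE 0.56, adjusted p = 2.07e-06) and -2.31 with Ro_5126766 (interval -3.67 to -0.94, adjusted p = 0.126). With Trametinib, from 3 counts, the ratio was 0.0190 (0.00391 to 0.0555). Ccnd1 (chr7:144929931-144939925, mm10) and Hmga2 (chr10:120361275-120476469) each overlap a gene on the other strand, as do Fosl1 and Phlda1, and the sources used here do not say whether strand was used in counting.

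Phlda1, a growth-restraining protein that ERK induces, had 24.1, 44.0 and 8.02 CPM with GDC_0623, Ro_5126766 and Trametinib, against 36.7 to 203 CPM and a median of 122 CPM. It fell with GDC_0623 by 2.41 on the log2 scale (SE 0.54, adjusted p = 0.00103) and with Trametinib (ratio 0.0662, 0.00801 to 0.239). Hbegf, a ligand of the EGF receptor, had 1, 0 and 6 counts with GDC_0623, Ro_5126766 and Trametinib, against a median of 41.8 CPM elsewhere. It fell with GDC_0623 (ratio 0.0641, 0.00162 to 0.357; adjusted p = 0.0339), which the Wald test did not call. The matrix-degrading enzyme Mmp3 had 33.1, 88.1 and 28.1 CPM, against 32.9 to 636 CPM and a median of 207 CPM, and was called over the 3 compounds together (log2 fold change -2.37, SE 0.70, adjusted p = 0.0163) but with none of them alone. Without either deeper well, Mmp3 was not called over the others. Mmp13, a collagenase, had 42.2, 22.02 and 4.01 CPM, against 3.67 to 184 CPM, and fell with Trametinib (ratio 0.0550, 0.00139 to 0.307). Emp1, a membrane protein, had 166, 176 and 32.1 CPM, against 129 to 394 CPM and a median of 222 CPM. It was below the range of the other wells with Trametinib alone (log2 fold change -2.94, SE 0.47, adjusted p = 8.07e-07).

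A pair of genes of the list, Fosl2 and Pea15a, rose with GDC_0623. Fosl2, an AP-1 subunit like Fosl1, had 87.4 CPM with GDC_0623, 0 CPM with Ro_5126766 and 84.2 CPM with Trametinib, against 15.0 to 70.5 CPM and a median of 35.5 CPM. It lay above every other well in both deeper wells, with a log2 fold change of 1.12 (SE 0.35, adjusted p = 0.0298) with GDC_0623, a call lost with the looser filter of at least 10 counts over all wells. Pea15a, which holds ERK in the cytoplasm, had 349.6, 220.2 and 285 CPM, against 110.0 to 322 CPM and a median of 164 CPM, and rose with GDC_0623 (log2 fold change 0.93, SE 0.27, adjusted p = 0.0213). Trib1, a pseudokinase that binds MEK1, had 9.04, 44.0 and 4.01 CPM with GDC_0623, Ro_5126766 and Trametinib, against 6.66 to 85.4 CPM and a median of 40.7 CPM. It fell with Trametinib (ratio 0.0998, 0.00253 to 0.556; not called by the Wald test) and over the 3 compounds (adjusted p = 0.0165), a call lost without either deeper well and in the Wald test. Ier3, Plk2, Dusp4 and Il11, the other tested genes of the list, were not called with any compound. Ier3, an early response gene, had 220.0, 286 and 409 CPM, against 132 to 1149 CPM, inside that range in all 3 wells.

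**Figure D1:**
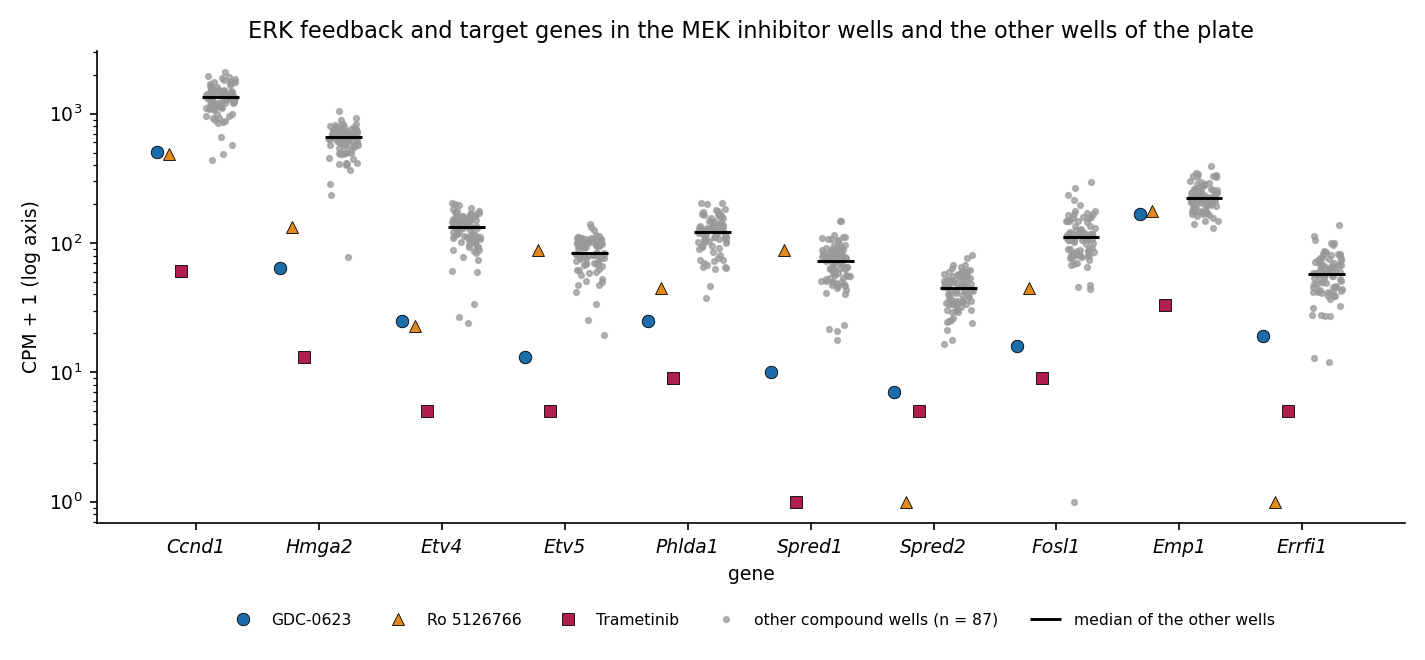
Level of 10 ERK-dependent genes in each well (CPM plus 1, log axis), with the 3 MEK inhibitor wells as coloured points at the left of each panel and the other 87 wells of plate 1 as grey points. Ccnd1 stands at 60.1 CPM in the Trametinib well, against 436 to 2093 CPM in the other wells.

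The promoters of the called genes are shown for the one ERK-linked motif found in them. RefSeq promoters on GRCm38.p6, from 250 bases before to 50 after a start site, were at hand for 7 of the 14 genes that fell over the 3 compounds. The AP-1 motif TGANTCA, read on both strands, was in 2 of these 7, Emp1 and Mmp3, and in 7.933% of all 27025 promoters. In the whole ERK list, called or not, it was in 5 of 25 promoters. The ETS motif CCGGAAG was in 0 of 7, against 9.121% of all promoters. Both promoters are given 5′ to 3′ on the plus strand with the AP-1 motif in capitals, Emp1 at chr6:135362681-135362980 and Mmp3 at chr9:7445572-7445871. A match of letters is a description and does not show that a factor binds there.
Emp1: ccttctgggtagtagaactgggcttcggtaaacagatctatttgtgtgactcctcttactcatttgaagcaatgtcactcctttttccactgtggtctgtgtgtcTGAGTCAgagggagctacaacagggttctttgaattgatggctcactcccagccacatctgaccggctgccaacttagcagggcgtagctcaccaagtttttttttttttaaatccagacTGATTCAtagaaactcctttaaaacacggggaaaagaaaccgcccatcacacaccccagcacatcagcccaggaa
Mmp3: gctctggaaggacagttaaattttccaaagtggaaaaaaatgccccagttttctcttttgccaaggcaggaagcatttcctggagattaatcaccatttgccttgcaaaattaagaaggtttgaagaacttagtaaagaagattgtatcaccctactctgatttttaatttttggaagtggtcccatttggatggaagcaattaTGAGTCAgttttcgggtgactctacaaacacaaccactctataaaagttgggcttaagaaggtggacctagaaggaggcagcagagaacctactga
Emp1 holds the motif at 2 places, and Mmp3 at 1 place shortly before the start site. Only the first-listed start site of each gene was counted and printed. The promoter of a second Emp1 start site (chr6:135367243-135367542) held 0 AP-1 motifs.

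Of 16 tested genes of the pathway itself, from RAS to ERK and its kinases, 3 were called with Trametinib, where 15.1% of all genes were, so the share was near that of all genes. Rras and Mapk3, which encodes ERK1, rose with Trametinib and Map2k2, which encodes MEK2, fell, while edgeR called 0 with GDC_0623 or Ro_5126766 (0 and 2 at an unadjusted p under 0.05, and 0 in the Wald test). Map2k2 also fell over the 3 compounds. Map2k2 had 561, 572 and 441 CPM with GDC_0623, Ro_5126766 and Trametinib, against 398 to 889.7 CPM and a median of 628 CPM, inside the others' range in all 3 wells. Its call with Trametinib (log2 fold change -0.64, SE 0.21, adjusted p = 0.0263) was lost with DESeq2's size factors. Mapk3 had 27.1, 0 and 84.2 CPM, against 0 to 51.9 CPM and a median of 26.1 CPM, above every other well with Trametinib (log2 fold change 1.497, SE 0.45, adjusted p = 0.0127). Among 8 tested receptor tyrosine kinases, the collagen receptor Ddr1 rose with GDC_0623 and with Trametinib, and Fgfr2 and Axl rose with Trametinib. Ddr1 had 69.3, 0 and 152 CPM, against 0 to 62.5 CPM and a median of 8.42 CPM, above all other wells in both deeper wells. Its call with GDC_0623 was lost in the Wald test.

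Collagens and other matrix genes were far higher in the 2 deeper MEK inhibitor wells. The 26 genes of a fibroblast and matrix list summed to 21546 CPM with GDC_0623, 11978 CPM with Ro_5126766 and 25361 CPM with Trametinib, against 6426 to 15749.5 CPM, with a median of 9197 CPM, in the other wells. GDC_0623 and Trametinib were above all 87, and Ro_5126766 above 86, with CCT196969 again the well in between. Of 25 tested genes, 13 rose and 1 fell with GDC_0623 (median log2 fold change 1.97 against -0.05 for all genes). With Trametinib 13 rose and 3 fell (median 1.43 against -0.05), and with Ro_5126766 1 rose (median 0.22 against -0.40). Over the 3 compounds 7 rose and 6 fell, and without the Ro_5126766 well 14 rose and 4 fell. Of all genes, 7.15%, 0.295% and 15.1% were called with GDC_0623, Ro_5126766 and Trametinib, and 10.9% over the 3 compounds. A MEK inhibitor well lay above every other well for 13 of the 25 genes with GDC_0623, 2 with Ro_5126766 and 13 with Trametinib, against 6.79%, 7.8% and 11.3% of all genes tested. In these bulk wells, fewer or more cells of a type and less or more RNA per cell cannot be told apart.

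Collagen genes of the list rose in the deeper wells. Col1a1, the main chain of type I collagen, had 2290.2 CPM with GDC_0623, 418 CPM with Ro_5126766 and 2662 CPM with Trametinib, against 51.1 to 1819 CPM, with a median of 111 CPM, in the other wells. The deeper wells were above the whole range, and Ro_5126766 was above the median and inside it. Col1a1 rose by 3.94 on the log2 scale with GDC_0623 (SE 0.44, adjusted p = 9.41e-12) and by 4.13 with Trametinib (SE 0.43, adjusted p = 3.18e-13). With Ro_5126766 the interval ran from -0.48 to 3.55. Col3a1, of type III collagen, had 937, 66.1 and 1672 CPM, against 11.6 to 797 CPM and a median of 86.7 CPM, with the Ro_5126766 value, from 3 counts, below the median. Col3a1 overlaps a predicted gene on the same strand. Lox, the enzyme that cross-links collagen, had 175 and 409 CPM with GDC_0623 and Trametinib and 1 count with Ro_5126766, against 0 to 95.5 CPM, and rose by 3.56 and 4.75 on the log2 scale (adjusted p = 4.63e-08 and 2.49e-16). Sparc, a collagen-binding matrix protein, had 5026, 1123 and 7665 CPM, against 475 to 3501 CPM and a median of 665 CPM, and Fstl1, a secreted glycoprotein, had 3038, 595 and 4274 CPM, against 116 to 1635 CPM and a median of 305 CPM. Sparc and Fstl1 rose with GDC_0623 and Trametinib, Sparc by 2.67 and 3.24 and Fstl1 by 3.15 and 3.61 on the log2 scale.

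Not every mesenchymal gene moved that way. Fn1, which encodes fibronectin, had 458, 396 and 233 CPM with GDC_0623, Ro_5126766 and Trametinib, against 357 to 1029 CPM and a median of 634 CPM, and fell with Trametinib. Vim, the intermediate filament vimentin, had 1323, 1057 and 645 CPM, against 992 to 3261 CPM and a median of 1663 CPM, and also fell with Trametinib. Twist2, a mesenchymal transcription factor, had 428, 617 and 341 CPM, against 389 to 1654 CPM and a median of 874 CPM, and fell with GDC_0623 and Trametinib. Pdgfra, Pdgfrb and Thy1, surface markers of fibroblasts, were not called with any of the 3 compounds. Thy1 had 2778, 4844 and 1772 CPM, against 209 to 3691 CPM and a median of 2169.6 CPM, so a defining marker of the labelled cell type was present in all 3 wells.

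Other genes lay outside the range of the other wells with all 3 compounds, the shallow Ro_5126766 well included. Of 6450 genes, 45 (0.698%) were higher in all 3 MEK inhibitor wells than in any of the 87 others, and 25 (0.388%) were lower. The filter took the 3 MEK inhibitor wells as a group, so a gene high in these wells alone could be among the 6450. The higher and lower shares are therefore not like for like. Ly6a (Sca-1, chr15:74994877-74998031), a surface protein of mesenchymal and other progenitors, had 4333 CPM with GDC_0623, 1277 CPM with Ro_5126766 and 5007 CPM with Trametinib, against 26.5 to 625.2 CPM, with a median of 107 CPM, elsewhere. It rose with each compound, by 5.09 (SE 0.30, adjusted p = 9.13e-28), 3.37 (interval 2.21 to 4.54, adjusted p = 0.00033) and 5.27 (SE 0.30, adjusted p = 8.4e-29) on the log2 scale. Prelp, a small leucine-rich proteoglycan, had 123, 3 and 22 counts, or 371, 66.1 and 88.2 CPM, against 0 to 11.02 CPM and a median of 0 CPM, and rose with each compound too (adjusted p = 0.00556 with Ro_5126766). Mfap5, a component of elastic microfibrils, had 193, 44.0 and 389 CPM, against 0 to 20.0 CPM and a median of 2.45 CPM, and rose with GDC_0623 and Trametinib. Mfap5 with Ro_5126766, from 2 counts, gave a ratio of 14.7 (1.79 to 53.3) and no call. Prelp and Mfap5 passed the filter only through the MEK inhibitor wells, so their place among the tested genes rests on the wells where they are high. S100a4, a calcium-binding protein of motile fibroblasts, had 955, 1409 and 1046 CPM, against 173 to 887 CPM, above every other well in all 3, and rose with Ro_5126766 by 1.601 on the log2 scale (interval 0.80 to 2.40, adjusted p = 0.0451, not called with the looser filter).

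Cxcl14, a chemokine, had 949, 639 and 1042 CPM with GDC_0623, Ro_5126766 and Trametinib, against 0 to 922 CPM with a median of 16.9 CPM. It rose with GDC_0623 and Trametinib, by 4.94 and 5.04 on the log2 scale (SE 0.61 and 0.63). The Ro_5126766 level was inside the range, though near its top. There the difference was 4.41, with an interval from 1.98 to 6.84 and an adjusted p of 0.0997. Wnt4, a signalling ligand, had 527, 418 and 754 CPM, against 22.2 to 415 CPM and a median of 64.3 CPM, and its relative Wnt2 had 69.3, 66.1 and 144 CPM, against 0 to 42.8 CPM and a median of 15.2 CPM. All 3 wells were above every other well for both genes, which were named after their values were seen. Klf2, a transcription factor that FOXO factors induce, had 193, 88.1 and 164 CPM, against 0 to 55.7 CPM and a median of 11.4 CPM, and rose with GDC_0623 (3.52, SE 0.47) and Trametinib (3.26, SE 0.54) on the log2 scale.

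**Figure D2:**
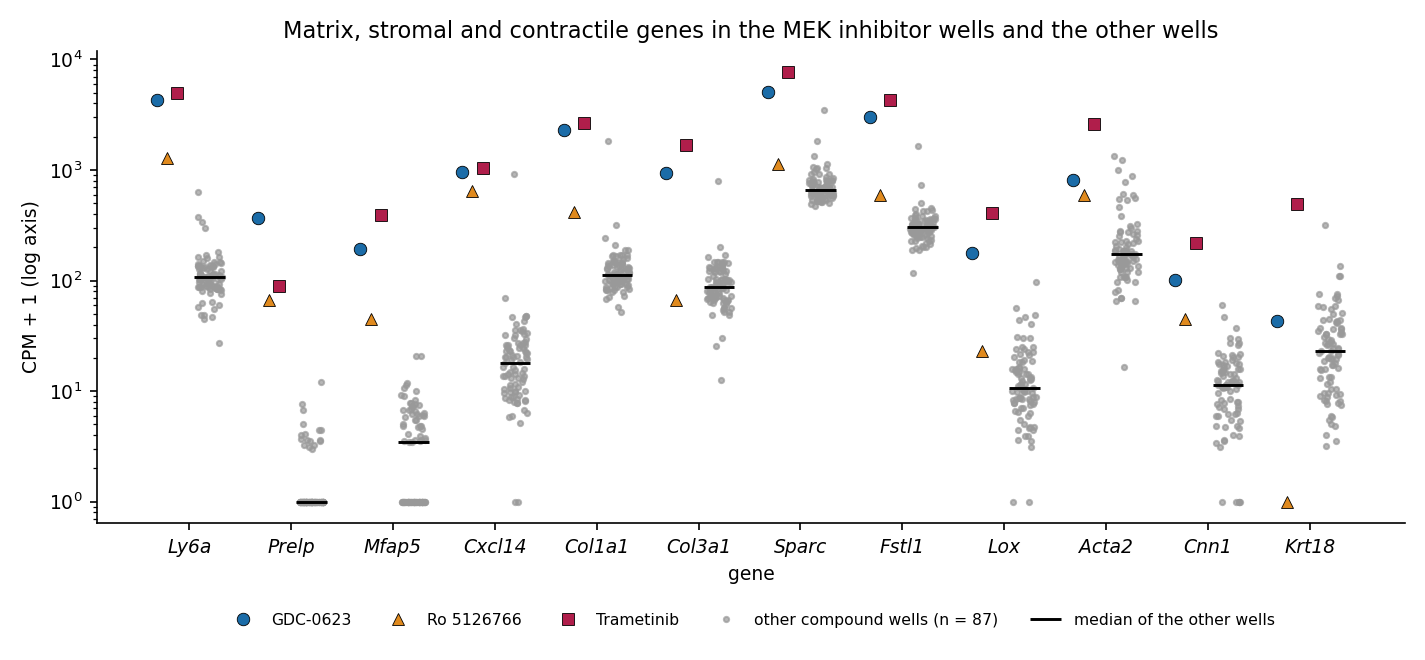
Level of 12 matrix, surface, contractile and keratin genes in each well (CPM plus 1, log axis), with the 3 MEK inhibitor wells as coloured points and the other 87 wells of plate 1 as grey points. Ly6a stands at 4333, 1277 and 5007 CPM in the MEK inhibitor wells, and no other well exceeds 625.2 CPM.

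The largest rises and falls were taken by rule from each compound's calls. With GDC_0623 the 10 largest rises were Prelp, Pamr1, Mfap5, Sst, Ly6a, Wisp2, Sod3, Prss35, Ogn and Cxcl14. Pamr1, a secreted protease-like protein, had 322, 44.0 and 237 CPM with GDC_0623, Ro_5126766 and Trametinib, against 0 to 129 CPM and a median of 2.46 CPM. Sod3, the extracellular superoxide dismutase, had 151, 22.02 and 160.4 CPM, against 0 to 66.1 CPM and a median of 1.69 CPM. Both were above all other wells with GDC_0623 and Trametinib and inside the range with Ro_5126766. The 10 largest falls with GDC_0623 were Nptx1, Raet1e, Gm13847, Nrgn, Trpm1, Frzb, Nptx2, Rnf183, Zmym5 and Rspo4. Nrgn, the neuronal protein neurogranin, had 3.01, 110.1 and 16.04 CPM, against 9.66 to 579 CPM and a median of 369 CPM, which gives a ratio of 0.00885 (2.24e-04 to 0.0493) with GDC_0623. Frzb, a secreted Wnt antagonist, had 0 counts in all 3 wells, against 3.38 to 85.5 CPM elsewhere, and was at least 3.11-fold lower with GDC_0623.

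With Trametinib the 10 largest rises were Mfap5, Igfbp5, Prelp, Saa3, Sst, Igfbp2, Mylk, Lpl, Pamr1 and Krt14. Igfbp5 and Igfbp2 encode binding proteins of the insulin-like growth factors. Igfbp5 had 144.6 CPM with GDC_0623, 0 counts with Ro_5126766 and 742 CPM with Trametinib, against 0 to 66.1 CPM and a median of 6.59 CPM, and Igfbp2 had 597 CPM, 0 counts and 1311 CPM, against 0 to 573 CPM and a median of 10.1 CPM. Both deeper wells were above all others for both genes. Lpl, lipoprotein lipase, had 39.2, 22.02 and 233 CPM, against 0 to 33.1 CPM, while Adipoq, Pparg and Plin1, which define fat cells, had 0 counts in the MEK inhibitor wells. As the filter took the MEK inhibitor wells as a group, Lpl may have passed it through the wells where it is high. Lpl went against its list, as the 9 adipocyte markers summed to 238, 308 and 349 CPM, against 272 to 1281 CPM and a median of 803 CPM. The other tested gene of that list lay below every other well with GDC_0623 and Trametinib. The 10 largest falls with Trametinib were Upp1, Spred1, Nefl, Fam78b, Klf10, Cdca3, Mcm3, Cstf1, Mob1b and Slitrk6, all at 0 counts there. Upp1, a uridine phosphorylase, had 3 counts with GDC_0623 and 0 with Ro_5126766, against 3.67 to 241 CPM elsewhere, and was at least 7.85-fold lower with Trametinib.

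Ro_5126766 alone gave 19 calls, 13 higher and 6 lower, or 23 and 3 with DESeq2's size factors. Beside Ly6a, Prelp and S100a4, the genes that rose included Tuba1a, an alpha-tubulin, Tmsb10, an actin-binding thymosin, and Atp5k, a subunit of ATP synthase. Tuba1a had 3936, 6011 and 3881 CPM with GDC_0623, Ro_5126766 and Trametinib, against 1083 to 3263 CPM, above all others with each compound. Atp5k had 741, 2862 and 702 CPM, against 439.6 to 1764 CPM, and Tmsb10 had 1076, 2554 and 998 CPM, against 455 to 1575 CPM. Both were outside the range with Ro_5126766 alone. The genes that fell were Srp14, Hmg20b, Sgta, Pabpc1, Capzb and Bax. Pabpc1, the cytoplasmic poly(A)-binding protein, had 482, 220.2 and 541 CPM, against 585 to 1944 CPM, below all others with each compound. Bax, which promotes cell death, had 934, 440.4 and 990.2 CPM, against 724 to 1417 CPM, below the range with Ro_5126766 alone. Srp14, of the signal recognition particle, had 0 counts with Ro_5126766 and 359 and 441 CPM with GDC_0623 and Trametinib, against 109.8 to 503 CPM, and was at least 3.43-fold lower with Ro_5126766.

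Contractile genes rose mainly with Trametinib. The 22 smooth muscle and SRF target genes summed to 5415 CPM with GDC_0623, 5284 CPM with Ro_5126766 and 10267 CPM with Trametinib, against 2893 to 6536 CPM, with a median of 3881 CPM. Trametinib was above all 87 wells, and GDC_0623 and Ro_5126766 were each above 82 of them. Of 21 tested genes, 4 rose with GDC_0623, 0 were called with Ro_5126766 by edgeR (1 at an unadjusted p under 0.05), and 10 rose and 1 (Fhl2) fell with Trametinib. The Wald test called 2 higher with GDC_0623, 0 with Ro_5126766 and 8 higher with Trametinib. The medians of their log2 fold changes were 0.57 with GDC_0623 and 1.25 with Trametinib, against -0.05 for all genes with either. Of all genes, 7.15% were called with GDC_0623 (5.16% higher) and 15.1% with Trametinib (8.6% higher). Acta2, smooth muscle actin, had 814, 595 and 2594 CPM, against 15.5 to 1348 CPM and a median of 171 CPM, and was above the range with Trametinib alone (log2 fold change 3.27, SE 0.62, adjusted p = 3.38e-05). Cnn1, the actin-binding calponin, had 99.4, 44.0 and 216 CPM, against 0 to 58.8 CPM and a median of 10.4 CPM, and rose with GDC_0623 (2.93, SE 0.55) and Trametinib (4.02, SE 0.48) on the log2 scale. Between the compounds themselves, edgeR and the Wald test called 0 of the 21 in any of the 3 pairs, and 2, 5 and 2 differed at an unadjusted p under 0.05 for GDC_0623 against Trametinib, Ro_5126766 against Trametinib and GDC_0623 against Ro_5126766. For Acta2 the GDC_0623 minus Trametinib difference was -1.64 with an interval from -4.20 to 0.92.

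SRF, the factor for which the list is named, binds the CArG box, and the promoters of 2 genes that rose with Trametinib are shown for it. Of 8 genes with a promoter entry among the 10 that rose, 3 held a CArG box (Acta1, Fhl1 and Myl9), as did 8 of 20 in the whole list and 1.573% of all promoters. That list was assembled from known SRF targets. Myl9, a myosin light chain, had 199, 286 and 657 CPM with GDC_0623, Ro_5126766 and Trametinib, against 7.58 to 426 CPM and a median of 71.1 CPM, and rose with Trametinib by 2.79 on the log2 scale (SE 0.50). Fhl1, a LIM protein of muscle, had 96.4, 22.02 and 425 CPM, against 0 to 86.7 CPM and a median of 19.4 CPM. It rose with GDC_0623 by 1.96 (SE 0.57; not called by the Wald test) and with Trametinib by 4.06 (SE 0.41) on the log2 scale. The promoters, Myl9 at chr2:156775214-156775513 and Fhl1 at chrX:56779433-56779732, both plus strand of GRCm38.p6 and 5′ to 3′, have the CArG box in capitals.
Myl9: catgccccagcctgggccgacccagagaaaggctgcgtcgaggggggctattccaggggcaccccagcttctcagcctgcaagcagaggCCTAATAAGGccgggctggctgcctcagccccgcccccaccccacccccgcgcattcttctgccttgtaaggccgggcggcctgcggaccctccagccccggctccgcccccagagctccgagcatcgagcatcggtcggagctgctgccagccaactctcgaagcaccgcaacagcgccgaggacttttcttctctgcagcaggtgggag
Fhl1: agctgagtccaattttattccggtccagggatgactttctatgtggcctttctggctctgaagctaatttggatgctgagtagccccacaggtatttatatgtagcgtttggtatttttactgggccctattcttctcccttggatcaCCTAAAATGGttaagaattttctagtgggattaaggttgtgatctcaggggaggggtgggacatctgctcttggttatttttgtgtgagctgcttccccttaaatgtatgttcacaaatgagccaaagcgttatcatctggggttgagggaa
Each promoter holds 1 CArG box before the start site. The promoter of a second Fhl1 start site (chrX:56786277-56786576) held 0 CArG boxes.

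Genes of DNA replication fell with Trametinib. The 25 genes of the S-phase list summed to 856 CPM with GDC_0623, 1365 CPM with Ro_5126766 and 425 CPM with Trametinib, against 683 to 1774 CPM, with a median of 1429 CPM. Trametinib was below all 87 wells, GDC_0623 below 82 and Ro_5126766 below 61. Of 19 tested genes, 1 (E2f1) fell with GDC_0623 (median log2 fold change -0.85), 0 were called with Ro_5126766 by edgeR or the Wald test (3 at an unadjusted p under 0.05) and 8 fell with Trametinib (median -2.06), or 4 in the Wald test. The median of all genes was -0.05 with GDC_0623 and with Trametinib, where 7.15% and 15.1% of all genes were called (1.98% and 6.48% lower). Mcm2, a subunit of the replicative helicase, had 60.3, 22.02 and 16.04 CPM, against 33.7 to 195 CPM and a median of 90.0 CPM, and fell with Trametinib by 2.60 on the log2 scale (SE 0.60, adjusted p = 0.000942). E2f1, which activates S-phase genes, had 66.3, 220.2 and 44.1 CPM, against 57.9 to 247 CPM and a median of 163 CPM. It fell by 1.37 (SE 0.40) with GDC_0623 and by 1.98 (SE 0.47) with Trametinib on the log2 scale, and was above the median with Ro_5126766, where 10 counts allow 106 to 405 CPM. The 24 mitotic genes of the G2/M list summed to 645, 683 and 245 CPM with GDC_0623, Ro_5126766 and Trametinib. The other wells had 226 to 1511 CPM, with a median of 783 CPM, and 86 of them lay above Trametinib. Of 16 tested mitotic genes, 3 (Cdc20, Plk1 and Ube2c) fell with Trametinib, where 6.48% of all genes were called lower. At an unadjusted p under 0.05, 8 of the 16 were lower with Trametinib and 0 higher, and the Wald test called 2 lower. With GDC_0623 or Ro_5126766, 0 were called by edgeR or the Wald test (1 at an unadjusted p under 0.05 for each). The CDK inhibitor genes Cdkn1c and Cdkn2b rose with Trametinib, at 212 and 112 CPM, against medians of 42.4 and 36.1 CPM in the other wells. They belong to a list of 15 tested CDK inhibitor and p53 target genes. Of the 15, 5 were higher with Trametinib and 0 lower at an unadjusted p under 0.05, where 28.7% of all genes passed either way. The Wald test called 2 of the 15 higher. These single calls are not read as a change of the list.

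**Figure D3:**
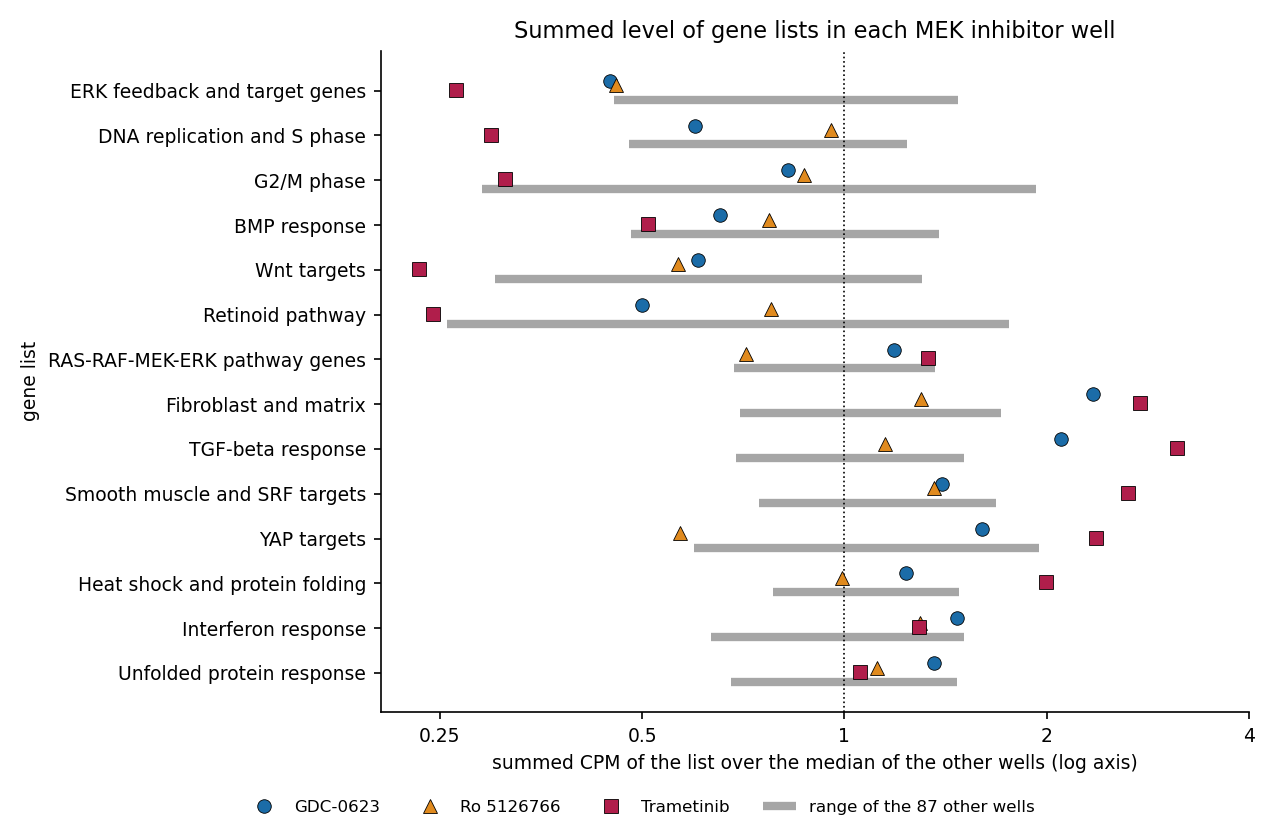
Summed level of 14 gene lists in each MEK inhibitor well, divided by the median of the other 87 wells (log axis), with a grey bar for the range of those wells. The ERK list lies below the bar and the matrix list above it in the GDC_0623 and Trametinib wells, while the Ro_5126766 well lies at the low end of the bar for the ERK list and inside the bar for the matrix list.

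Signalling genes of other pathways changed one by one, where 7.15% of all genes were called with GDC_0623 and 15.1% with Trametinib. The calls below are of single genes and are not read as a change of each list. Of 12 tested TGF-beta response genes, Tgfb2, a TGF-beta ligand, and Tgfbi, a matrix protein that TGF-beta induces, rose with GDC_0623 and Trametinib, while Pmepa1, a feedback inhibitor, fell with Trametinib. Tgfbi had 847, 220.2 and 1684 CPM with GDC_0623, Ro_5126766 and Trametinib, against 81.5 to 514 CPM and a median of 239 CPM, so it was above the others with the deeper wells and below their median with Ro_5126766. Of 8 tested BMP response genes, Id1, an inhibitor of differentiation that BMP induces, fell with GDC_0623 and Trametinib. The BMP ligand gene Bmp2 fell with GDC_0623, the homeobox gene Msx1 fell with Trametinib, and Grem1, a secreted BMP antagonist, rose with Trametinib. Grem1 had 93.4, 22.02 and 385 CPM, against 11.6 to 315 CPM and a median of 79.2 CPM, above the range with Trametinib (log2 fold change 1.96, SE 0.47). Id1 had 389, 286 and 120.3 CPM, against 379.8 to 968 CPM and a median of 649 CPM, with GDC_0623 at the edge of that range and the other MEK inhibitor wells below it. Its log2 fold change was -0.83 (SE 0.26; not called with the looser filter) with GDC_0623 and -2.55 (SE 0.33) with Trametinib, and -1.23 with an interval from -1.95 to -0.51 with Ro_5126766 (adjusted p = 0.121). In the retinoid pathway, the retinoic acid-making enzyme gene Aldh1a2 rose with GDC_0623 and Trametinib and Cyp26b1, which encodes an enzyme that breaks retinoic acid down, rose with GDC_0623, while the retinol importer Stra6 and the retinoic acid-binding protein gene Crabp1 fell. Crabp1 had 2818, 6143 and 682 CPM, against 1716 to 15040.4 CPM and a median of 8298 CPM, below the range with Trametinib alone, and its call with GDC_0623 was lost with the looser filter, the reduced reference and robust moderation. Among 11 tested chaperone genes, the small heat shock genes Hspb1 and Hspb8 rose with GDC_0623 and Trametinib, and Cryab with Trametinib. Hspb1 had 310.4, 154 and 1699.8 CPM, against 6.74 to 260.0 CPM and a median of 36.1 CPM, above the range with GDC_0623 and Trametinib.

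Among markers of other cell types, keratins rose with Trametinib. Of all genes, 15.1% were called with Trametinib and 7.15% with GDC_0623. The simple-epithelium keratins Krt8, Krt18 and Krt19 all rose with Trametinib in edgeR, and the Wald test called 2 of these 3. Krt18 had 42.2, 0 and 493.1 CPM with GDC_0623, Ro_5126766 and Trametinib, against 2.21 to 316 CPM and a median of 22.2 CPM. Krt7, a further keratin, had 100.2 CPM with Trametinib, against 0 to 10.98 CPM in the other wells, and was too low to test. The 12 epithelial markers summed to 81.4, 0 and 986 CPM, against 4.42 to 477 CPM and a median of 38.1 CPM. Of these 12, 5 had 0 counts in all 3 wells, namely Epcam, Cdh1, Cldn6, Esrp1 and Ovol1. The rest of the list, Krt8, Krt18 and Krt19 among them, had counts with GDC_0623, Trametinib or both. The part of other cells in the keratin rise was not tested. The 12 extraembryonic endoderm markers summed to 5225, 1211 and 7938 CPM, against 556 to 3663 CPM and a median of 763 CPM, above all other wells with GDC_0623 and Trametinib. Sparc, which the matrix list also holds, made up 5026 and 7665 CPM of the GDC_0623 and Trametinib sums. Of the 5 tested, Sparc and Dab2, an endocytic adaptor, rose with GDC_0623 (Dab2 not in the Wald test), and Sparc and Col4a1, of basement membrane collagen, rose with Trametinib. The defining markers Gata4, Sox17, Foxa2 and Hnf4a had 0 counts in all 3 wells, and Gata6 had 12.1, 0 and 28.1 CPM, against 0 to 24.9 CPM. Of 9 pluripotency markers, 8 had 0 counts in all 3 wells, and the rest, Klf4, is expressed by fibroblasts too. Endothelial markers summed to 42.2, 88.1 and 48.1 CPM, against 49.5 to 223 CPM, with Esam, a junction protein, as the gene that fell, while Pecam1 and Cldn5 had 0 counts in all 3 wells. Macrophage markers summed to 51.2, 0 and 60.1 CPM, against 18.4 to 297 CPM, and Ptprc, the pan-leukocyte gene, had 0 counts in all 3 wells. Among 7 tested neural markers, Tubb3, a neuronal tubulin, rose with GDC_0623 and Trametinib. Nefl, a neurofilament gene that overlaps Nefm, fell with both, at 3 counts with GDC_0623 and 0 with Ro_5126766 and Trametinib, against 14.7 to 134 CPM. The Wald test did not call Nefl with GDC_0623.

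The 3 compounds were compared with each other in 3 pairs, with p-values adjusted over all genes and pairs together. Doses are not in the labels, so a difference between compounds and a difference between doses cannot be told apart. GDC_0623 and Trametinib differed in 6 of 6450 genes (0.093%), of which 2 were ERK genes. Ccnd1 was higher with GDC_0623, at 509 CPM against 60.1 CPM with Trametinib, a log2 difference of 3.10 with a 95% interval from 1.89 to 4.32 (adjusted p = 0.0119). Emp1 was higher as well, at 166 CPM with GDC_0623 and 32.1 CPM with Trametinib (2.39, 1.26 to 3.51, adjusted p = 0.0362). The Emp1 call was lost in DESeq2's Wald test, with the looser filter on genes, with a higher minimum total per well and in a fit without the Ro_5126766 well, and the Ccnd1 call was kept in each of these.

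Over the 22 tested ERK genes, the median GDC_0623 minus Trametinib difference was 1.19 on the log2 scale, against 0.01 for all genes. For the other 20 the difference missed the threshold, and the intervals were wide. For Hmga2 it was 2.39 (0.38 to 4.39, adjusted p = 0.448), for Etv4 2.496 (-0.21 to 5.199) and for Phlda1 1.57 (-0.60 to 3.74). These data allow differences of several-fold in either direction for some genes and so do not show that the compounds act alike on them. The remaining calls in this pair were Id1, Fam198b and Mob1b, a Hippo pathway adaptor, higher with GDC_0623, and Crip1, a LIM protein, lower. Mob1b had 15 counts with GDC_0623 and 0 with Trametinib. Each of these 4 calls was lost under 1 or more alternatives. Crip1 had 208 CPM with GDC_0623 and 1724 CPM with Trametinib, against 3.33 to 143 CPM in the other wells, so it was above all others with both and by far the higher with Trametinib (difference -3.02, -4.45 to -1.59). Among matrix genes, edgeR and the Wald test called 0 of 25 between these compounds (2 at an unadjusted p under 0.05), with differences of -0.19 (-2.07 to 1.70) for Col1a1, -0.58 (-1.78 to 0.63) for Sparc and -0.18 (-1.68 to 1.33) for Ly6a.

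**Figure D4:**
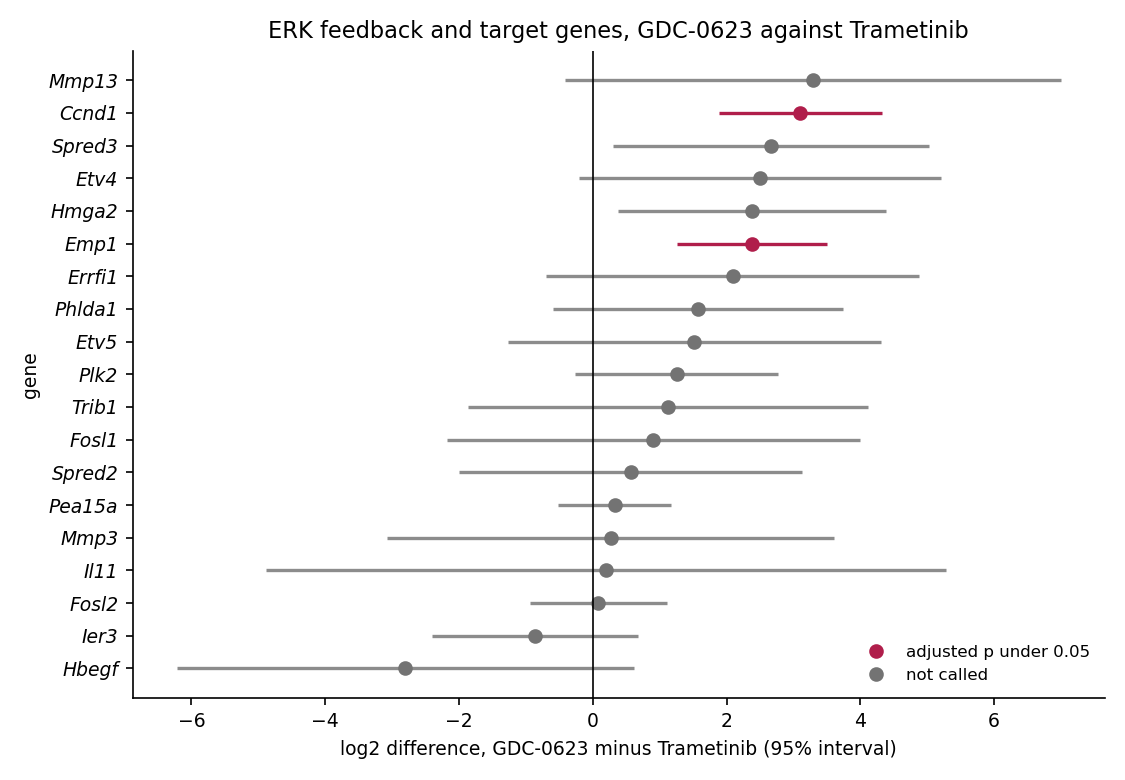
Log2 difference of GDC_0623 minus Trametinib for the 19 ERK genes with at least 1 count in both wells, with 95% intervals. Ccnd1 at 3.10 and Emp1 at 2.39 are the called genes, and most other points lie above 0 with intervals that include it.

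Ro_5126766 and Trametinib differed in 28 genes (0.434%), of which Ccnd1 was the 1 ERK gene. It had 484 CPM with Ro_5126766 and 60.1 CPM with Trametinib, a difference of 3.07 (1.68 to 4.47, adjusted p = 0.0274), which missed the threshold with the looser filter. GDC_0623 and Ro_5126766 differed in 7 genes (0.109%), 4 higher and 3 lower, or 3 and 6 with DESeq2's size factors and 0 and 9 in the Wald test. Of the ERK and matrix lists, 0 genes were called (3 and 7 at an unadjusted p under 0.05), and their Ccnd1 difference was 0.03 (-1.13 to 1.20). Of matrix genes, edgeR called 0 of 25 for Ro_5126766 against Trametinib, with 8 at an unadjusted p under 0.05 and 2 in the Wald test, all lower. The Ro_5126766 minus Trametinib intervals lay below 0 for Sparc (-2.70, -4.06 to -1.34) and Fstl1 (-2.77, -4.21 to -1.33) but the adjusted threshold was missed (adjusted p = 0.0583 and 0.076).

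Inhibitors of neighbouring kinases on the plate were set beside the MEK inhibitors. These comparisons were added after the well names were seen and with earlier results of these data known. The ERK list summed to 1766, 1806 and 1042 CPM with GDC_0623, Ro_5126766 and Trametinib, against 3834 and 4269 CPM in the wells named BRAF_inhibitor and Dabrafenib and 3075 and 3424 CPM with BIX02188 and BIX02189, which inhibit MEK5. The wells of both neighbouring classes are among the 87 other wells, whose median was 3947 CPM, so they lie within that group's range by definition. CCT196969, an inhibitor of RAF and SRC kinases with an ERK sum of 1789 CPM, was not counted among the 2 RAF inhibitor wells. Over the 3 MEK inhibitors against the 2 RAF inhibitor wells, 14 of 22 ERK genes were lower and 0 higher, where 6.36% of all genes were called (2.03% higher and 4.33% lower, from 131 higher and 279 lower, or 151 and 187 with DESeq2's size factors, 171 and 120 in the Wald test and 489 and 463 without the Ro_5126766 well). Against the 2 MEK5 inhibitor wells, 8 were lower and 1 (Pea15a) higher, where 4.19% were called (1.41% higher and 2.78% lower, from 91 higher and 179 lower, or 103 and 125, 107 and 109, and 402 and 350 under the same settings). Ccnd1 differed by -2.60 (SE 0.34, adjusted p = 7.24e-08) from the RAF wells and by -2.11 (SE 0.35, adjusted p = 2e-05) from the MEK5 wells, on the log2 scale. Col1a1 had 2290.2, 418 and 2662 CPM in the MEK inhibitor wells, against 95.6 and 80.3 CPM with the RAF inhibitors and 116 and 127 CPM with the MEK5 inhibitors. The wells named bC8FAE, on plate 3, had ERK sums of 4231 to 6974 CPM, with the top value from the shallowest of them, and no test was made across plates.

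**Figure D5:**
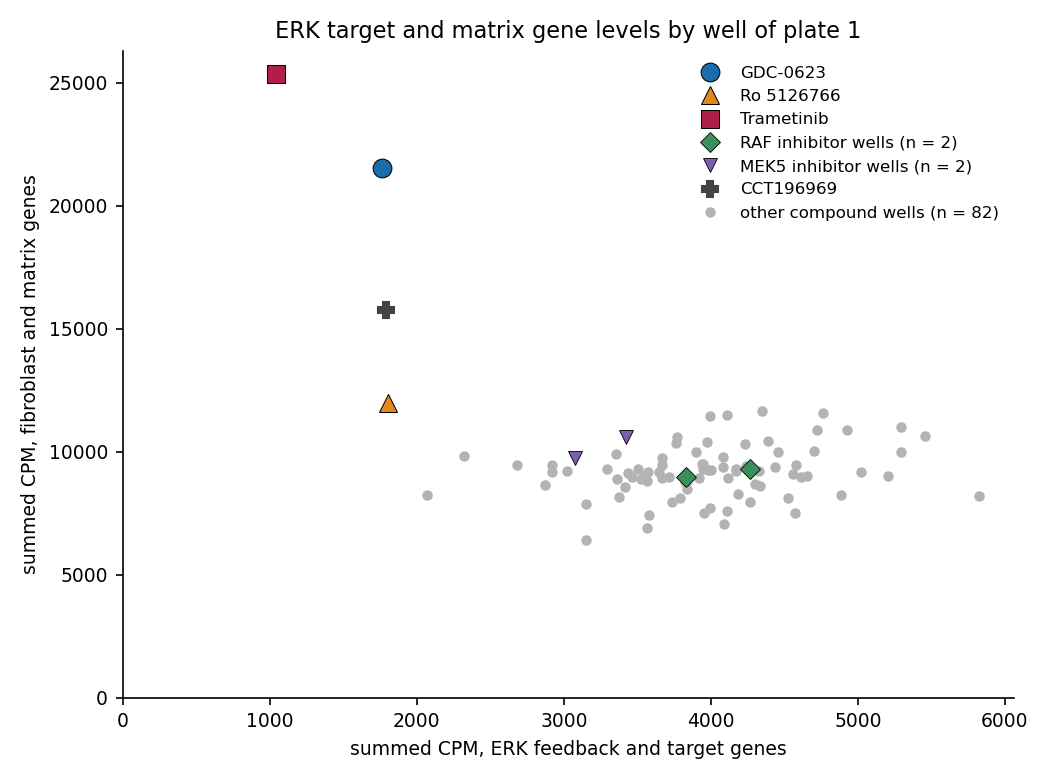
Summed level of the ERK list (x axis, CPM) against that of the matrix list (y axis, CPM) for each of the 90 wells, with the MEK, RAF and MEK5 inhibitor wells and CCT196969 marked. GDC_0623 and Trametinib lie at the low end of the x axis and above 15749.5 CPM on the y axis, with Ro_5126766 and CCT196969 between them and the other wells.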

How the data were processed

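Per the labels, mouse embryonic fibroblasts were profiled in 3 plates by DRUG-seq2. The authors deposited whole-number counts per gene and well, a single table of 274 columns and 20471 genes with 26 names turned into dates, made with STAR on mm10 per the submitters' processing notes. For the counting step, the annotation, strand and molecular identifiers, no method is given in the sources used here. Wells were taken from column names matched to the barcode lists, and 17 columns that matched no single plate were not used. Of 91 wells of plate 1, 1 with under 10% of the plate's median total of 318166 was left out.

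Counts were fitted in edgeR 4.0.16 (R 4.3.3) with TMM scaling and a filter with a minimum count of 10, which kept 6450 genes. The filter took the 3 MEK inhibitor wells as a group and the other wells as another, so a gene could pass through its level in 3 wells. Each MEK inhibitor had 1 coefficient and the other 87 wells formed the intercept. Two-sided quasi-likelihood tests were adjusted by Benjamini and Hochberg over all genes, and for the 3 pairs over genes and pairs together. The comparison with all 3 compounds is the mean of their coefficients. The script was tested on simulated data.

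Totals were 331844 counts for GDC_0623, 45416 for Ro_5126766 and 249434 for Trametinib, so a value with Ro_5126766 is the least precise. Level intervals are exact binomial and ratios of 1 to 3 counts have exact Poisson intervals, at 95%. A gene at 0 counts is given against a floor of 3 counts in that well. Alternatives were DESeq2 1.42.0 (size factors and Wald test), a looser filter of at least 10 counts over all wells, a reference without 18 wells of RAF, receptor and SRC inhibitors, a minimum of 50% of the median total, robust moderation and each compound left out.

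The members, gene lists and neighbouring wells were chosen with earlier results of these data known. Named genes are, for each compound and all 3 together, the 10 largest rises and falls among calls with at least 10 CPM in the higher mean, the 5 largest each way per pair, the ERK list, and up to 4 called genes of each other list. Other genes in the text were chosen after their values were seen, or belong to a list. Some genes that meet these rules are not reported here. Gene positions are from GENCODE on mm10.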

Additional observations from a re-analysis of the deposited data

Results flagged for a closer look

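Some genes differed between MEK inhibitors by the test of the difference itself, and the values are log2 differences. GDC_0623 minus Trametinib was 3.10 for Ccnd1, -3.02 for Crip1, 2.39 for Emp1, 4.04 for Fam198b, 1.72 for Id1 and 6.74 for Mob1b. The Mob1b value is fitted against 0 counts with Trametinib and is no bound. Fam198b had 136 CPM with GDC_0623 and 8.02 CPM, from 2 counts, with Trametinib, against 28.3 to 121 CPM in the other wells, so the compounds lay on opposite sides of that range.

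Ro_5126766 minus Trametinib was -8.79 for Atxn7l3, 3.07 for Ccnd1, 3.24 for Crabp1, -10.34 for Gm2a, -9.29 for Hmg20b, 3.35 for Prmt3, 2.52 for Rps15a, -3.60 for Serf2, -9.98 for Srp14 and 2.80 for Urod. Atxn7l3, Gm2a, Hmg20b and Srp14 had 0 counts with Ro_5126766, so their values are no bounds. Gm2a, a lysosomal activator protein, had 163, 0 and 565 CPM with GDC_0623, Ro_5126766 and Trametinib, against 0 to 147 CPM, above all others in both deeper wells. Crabp1 had 6143 CPM with Ro_5126766 and 682 CPM with Trametinib, against a median of 8298 CPM in the other wells.

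GDC_0623 minus Ro_5126766 was -1.81 for Fau, 8.97 for Pdha1, -3.46 for Prmt3, 3.26 for Serf2, 3.56 for Sgta and 9.72 for Srp14, with Pdha1 and Srp14 at 0 counts with Ro_5126766. Serf2 overlaps Hypk on the same strand. Prmt3, an arginine methyltransferase, had 18.1, 198 and 20.0 CPM with GDC_0623, Ro_5126766 and Trametinib, against 16.7 to 77.0 CPM, so it was above the range with Ro_5126766. As Ro_5126766 had 1 well and the lowest depth, the part of depth in these differences was not tested.

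Of the 5 wells named bC8FAE, 1 (bC8FAE_4) had an ERK sum of 6974 CPM, far above the 4 others. Its gap to the nearest was 0.863 of the group's range, past the critical value of 0.71 for 5 samples, which chance exceeds in about 1 in 20 groups. This well was also the shallowest of the 5, with a total of 119295 counts against 390895 to 505914 in the others. The part of depth in its sum was not tested.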

How the results depend on the processing

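GDC_0623 and Trametinib against the other wells of plate 1 kept counts of calls within 1.5 times under every alternative run. Ro_5126766 against other compound wells of plate 1 gave 33 calls in DESeq2's Wald test and 9 with the looser filter. For the pairs, GDC_0623 against Trametinib gave 3 calls in the Wald test, 2 with the higher minimum total and 3 in the fit without the Ro_5126766 well. Ro_5126766 against Trametinib gave 7 with the looser filter, and GDC_0623 against Ro_5126766 gave 1 with it and 12 with the reduced reference. MEK class against other compound wells of plate 1, which is the 3 compounds together, gave 1608 calls (787 higher, 821 lower) with the higher minimum total, which drops the Ro_5126766 well, and 1445 (772 higher, 673 lower) with 1 coefficient for the 3 wells. Leaving out a compound gave 153 calls (without Trametinib) to 1610 (without Ro_5126766), and 274 without GDC_0623. In the Wald test its split was 344 higher and 256 lower. MEK class against RAF inhibitor wells gave 955 and 750 under those 2 settings and 72 to 952 with a well left out, and MEK class against MEK5 inhibitor wells gave 764 and 519, and 33 to 752. The cause of these changes was not tested, apart from the wells and genes each setting leaves out. DESeq2's size factors moved the all-gene median of Ro_5126766 from -0.403 to -0.26 and that of GDC_0623 against Ro_5126766 from 0.458 to 0.348. Of the named genes' values, 3485 kept direction and side of the threshold, 695 lost the call and 7 turned direction. Hmg20b, MEK class against other compound wells of plate 1, turned to 0.1471 with the higher minimum total and ranged from -4.48 to 0.1648 with a compound left out, turning without Ro_5126766, and Sgta, MEK class against other compound wells of plate 1, ranged from -1.797 to 0.01119. Hmg20b, MEK class against RAF inhibitor wells, turned to 0.05494 and ranged from -4.545 to 0.09794, and Sgta, MEK class against RAF inhibitor wells, turned to 0.02007 and ranged from -1.756 to 0.06165, likewise. The reduced reference gives no value for the RAF and MEK5 comparisons, and the higher minimum total none for Ro_5126766. Depth limits Ro_5126766 most, where a gene under about 66.1 CPM has fewer than 3 counts. No paired analysis was possible because all wells compared are on 1 plate and carry no replicate numbers.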

Other observations

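The 86 genes of ribosomal proteins, a set chosen after their values were seen, were lower with Trametinib. They summed to 171523 CPM with GDC_0623, 276070 CPM with Ro_5126766 and 126362 CPM with Trametinib, against 177013 to 328167 CPM, with a median of 244776 CPM, in the other wells. Both deeper MEK inhibitor wells lay below the range and Ro_5126766 above its median. Of 80 tested genes, 6 fell with GDC_0623, 0 were called with Ro_5126766 and 40 fell with Trametinib, and 0 rose with any. Of all genes, 7.15%, 0.295% and 15.1% were called with GDC_0623, Ro_5126766 and Trametinib (1.98%, 0.093% and 6.48% lower). Their median log2 fold changes were -0.59, -0.18 and -0.95 with GDC_0623, Ro_5126766 and Trametinib, against -0.05, -0.40 and -0.05 for all genes. Many of these genes have near-identical processed copies in the genome, and the sources used here do not say how such reads were counted. Pabpc1, which like them belongs to the translation machinery, was below all other wells with each compound.

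CCT196969, the RAF and SRC inhibitor well next to the MEK inhibitors in both sums and singled out after its values were seen, had Ccnd1 at 665 CPM, inside the range of the other wells, and Hmga2 at 77.1 CPM, the lowest of the 87. It had Col1a1 at 1819 CPM and Sparc at 3501 CPM, the highest of the 87 for each, and Ly6a at 371 CPM, below all 3 MEK inhibitor wells.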
